A study of Mus musculus with 21 samples.

Results

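The CUT homeodomain genes *Onecut1*, *Onecut2*, *Onecut3*, *Cux1* and *Cux2* were followed through motor neuron (MN) differentiation and under GSKJ4, an inhibitor of the Kdm6 histone H3K27 demethylases. They were chosen by name, as the Onecut genes together with both Cux genes, and make up 5 of the 55400 genes in the deposited tables. Wild-type C57BL/6 mouse embryonic stem cells, grown on mitomycin-C-treated fibroblast feeders, formed embryoid bodies. These received retinoic acid and the Smoothened agonist SAG from D2 until the medium change at D5, and the Notch inhibitor DAPT from D4. The untreated groups were D4 (pMN, progenitors), D4H8 (pnMN, 8 h after D4), D5 (nbMN, newborn) and D6 (mMN, mature), and the treated groups D4H8_GSKJ4, D5_GSKJ4 and D6_GSKJ4 had received the inhibitor for a day before collection. Each of the 7 groups had 3 libraries of polyA RNA, named as biological replicates. The dose of GSKJ4 was not given in the sources used here, and whole cultures were sequenced, so fewer cells of a type and less RNA per cell cannot be told apart.

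CUT-class transcription factors carry a homeodomain and 1 or more CUT repeats, and bind DNA through both. Onecut proteins have a single CUT repeat and are known for roles in liver and pancreas and in developing spinal motor neurons and interneurons, where they support the expression of *Isl1*. Cux proteins have several CUT repeats. *Cux1* is expressed in most dividing tissues, often as a repressor, while *Cux2* is largely neural and marks upper-layer cortical neurons and subsets of spinal neurons. *Satb1*, a more distant relative, carries CUT repeats and organizes chromatin.

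On GRCm38, the build the reads were aligned to (mm10), *Onecut1* (ENSMUSG00000043013) lay at chr9:74861921-74891781 on the plus strand and *Onecut3* (ENSMUSG00000045518) at chr10:80494835-80517276 on the plus strand. *Onecut2* (ENSMUSG00000045991) lay at chr18:64340020-64400987 on the plus strand. Both Cux genes lay on the minus strand of chromosome 5, *Cux1* (ENSMUSG00000029705) at chr5:136248135-136567490 and *Cux2* (ENSMUSG00000042589) at chr5:121856366-122050102. The exonic lengths used for FPKM (counted fragments scaled to exonic length and to the total of the library) ranged from 4113 bases for *Onecut1* to 20024 bases for *Cux1*. No stretch of 75 bases was shared between transcripts of any pair of the 5 genes, so reads of that length or longer tell them apart.

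*Onecut1* overlaps the lincRNA *Gm20649* on the same strand over 2171 exonic bases, 52.8% of its length, and *Gm20649* was listed at 0 to 9 counts per library. How reads in such an overlap were counted was not given. If they were set aside, *Onecut1* would stand at 36.96 ± 7.17 FPKM at D6 (SD, n = 3) over its 1942 unshared bases, against 17.4 ± 3.38 FPKM as deposited. Comparisons of *Onecut1* with itself across groups do not depend on that length, whereas its rank among the other genes does. *Cux1* shared 394 bases, 1.97% of its exons, with a gene on the opposite strand listed at 0 to 2 counts. The *Cux1* locus also yields CASP transcripts without the homeodomain, which counts per gene cannot separate.

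The bases upstream of the starts show how the promoters of the called and the uncalled Cux gene differ in letters, beside that of *Onecut1*. RefSeq windows on GRCm38.p6 were found for 3 of the 5 genes, with 2 starts for *Cux2*. Each is the 250 bases before the start, 5′ to 3′ on the gene's own strand, and capitals mark matches to the searched motifs. The first motif was ATCGAT, known as a target of CUT repeats. The other motifs were ATCAAT, which forms the core of Onecut sites, the common E-box sequence CAGCTG, and the promoter element TATAAA, and all were sought on both strands.
*Onecut1*, chr9:74861671-74861920, plus strand: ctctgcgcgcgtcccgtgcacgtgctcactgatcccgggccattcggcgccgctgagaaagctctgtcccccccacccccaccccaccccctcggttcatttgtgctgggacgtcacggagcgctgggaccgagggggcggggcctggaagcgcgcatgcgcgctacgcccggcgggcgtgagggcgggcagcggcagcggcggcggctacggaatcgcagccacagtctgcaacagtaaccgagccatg
*Cux1*, chr5:136565982-136566231, minus strand: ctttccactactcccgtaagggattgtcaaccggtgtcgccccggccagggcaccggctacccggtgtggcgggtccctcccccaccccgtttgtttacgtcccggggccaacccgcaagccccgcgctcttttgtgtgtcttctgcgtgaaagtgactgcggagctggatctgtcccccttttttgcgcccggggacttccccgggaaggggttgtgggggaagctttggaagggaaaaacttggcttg
*Cux2*, upstream start, chr5:122049852-122050101, minus strand: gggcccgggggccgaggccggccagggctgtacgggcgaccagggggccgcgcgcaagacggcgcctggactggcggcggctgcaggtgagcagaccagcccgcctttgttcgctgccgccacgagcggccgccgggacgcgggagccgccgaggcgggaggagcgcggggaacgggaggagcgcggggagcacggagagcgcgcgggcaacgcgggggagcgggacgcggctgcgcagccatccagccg
*Cux2*, downstream start, chr5:122047826-122048075, minus strand: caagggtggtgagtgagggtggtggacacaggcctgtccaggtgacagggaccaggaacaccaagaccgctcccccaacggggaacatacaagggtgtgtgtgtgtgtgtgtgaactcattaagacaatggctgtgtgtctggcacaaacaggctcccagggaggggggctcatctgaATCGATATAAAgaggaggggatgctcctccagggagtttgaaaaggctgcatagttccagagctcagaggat
Only the downstream *Cux2* window held any of the 4 motifs. It had ATCGAT at position -72 and, overlapping its last letter, TATAAA at position -67, counted from the start. Of 32851 RefSeq windows of the same length, 0.728% held ATCGAT, 6.72% held ATCAAT, 13% held CAGCTG and 12.4% held TATAAA. GC content was 71.6% in the *Onecut1* window, 62.8% in that of *Cux1*, 80% at the upstream and 55.2% at the downstream *Cux2* start, against a median of 52.4% over all windows. CpG dinucleotides numbered 31, 18, 40 and 3 in the same order, against a median of 6. A match in letters is not a bound site, and the expression counts do not say which *Cux2* start was used.

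The libraries held 14982115 to 34383842 counts on genes, with a median of 16238435 and the most in D4H8 replicate 1. D5_GSKJ4 replicate 2 stood apart, with 39381 genes at 0 against 29339 to 32805 in the other libraries. The labelled cell type was in place by its markers at the later stages: *Chat*, the acetylcholine-synthesizing enzyme, stood at 0.227 ± 0.246 FPKM at D4 and 27.1 ± 4.04 FPKM at D6 (SD, n = 3). *Isl1*, the LIM homeodomain factor of motor neurons, went from 3.79 ± 1.74 to 125 ± 9.61 FPKM, and *Olig2*, which marks their progenitors, from 47.5 ± 9.06 to 1.24 ± 0.632 FPKM. Genes that mark other cell types were measured too. The summed FPKM of 8 pluripotency genes was 133.7 to 310.3 at D4 and 13.2 to 109.1 at D6, and that of 12 spinal interneuron genes was 3.33 to 3.99 at D4 and 59.9 to 104.6 at D6.

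To learn when each factor is switched on, neighbouring untreated stages were compared. All 3 Onecut genes and *Cux2* were upregulated between D4 and D6, by 11.9-fold to 94.0-fold, while *Cux1* was expressed throughout with no change past the test. The first step to pass the test differed: *Onecut1* and *Onecut2* rose in the 8 h after D4, and *Onecut3* and *Cux2* between D4H8 and D5. The step from D4 to D4H8 also spans the first 8 h with DAPT. That from D5 to D6 spans the time without retinoic acid and SAG. Time and these changes of medium cannot be told apart.

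*Onecut1*, the founding Onecut factor, stood at 0.55, 0.95 and 0.94 FPKM in the D4 libraries and at 7.04, 4.35 and 4.74 FPKM at D4H8. It reached 8.19, 8.24 and 8.37 FPKM at D5, and 21.2, 14.7 and 16.4 FPKM at D6. No untreated stage overlapped the next, and the D5 libraries lay closer to each other than those of any other group.

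*Onecut2* started as low, at 0.35, 0.73 and 0.50 FPKM at D4, and stood at 5.17, 3.03 and 2.55 FPKM at D4H8. At D5 it had 21.1, 19.1 and 16.6 FPKM, and at D6 37.9, 21.9 and 25.6 FPKM. Its largest step in level fell between D4H8 and D5, and each D6 library lay above all D5 libraries, the closest pair being 21.9 and 21.1 FPKM.

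*Onecut3* was the last Onecut gene to rise. It had 0.26, 0.13 and 0.28 FPKM at D4 and 0.38, 0.43 and 0.35 FPKM at D4H8, a level at which few reads fell on the gene. It then stood at 3.57, 5.27 and 4.21 FPKM at D5 and at 29.3, 14.5 and 17.6 FPKM at D6, without overlap between stages.

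*Cux1* had 3.58, 4.03 and 4.62 FPKM at D4, 6.20, 4.84 and 4.51 FPKM at D4H8, 3.92, 3.65 and 4.44 FPKM at D5, and 4.73, 4.43 and 3.85 FPKM at D6. Its groups overlapped at D4, D5 and D6. *Cux2* had 0.52, 0.56 and 1.03 FPKM at D4 and 1.11, 0.98 and 1.01 FPKM at D4H8, where the groups overlapped. It stood at 4.04, 3.50 and 3.50 FPKM at D5 and at 8.89, 7.89 and 6.71 FPKM at D6, so both later stages were clear of the stage before.

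**Figure D1:**
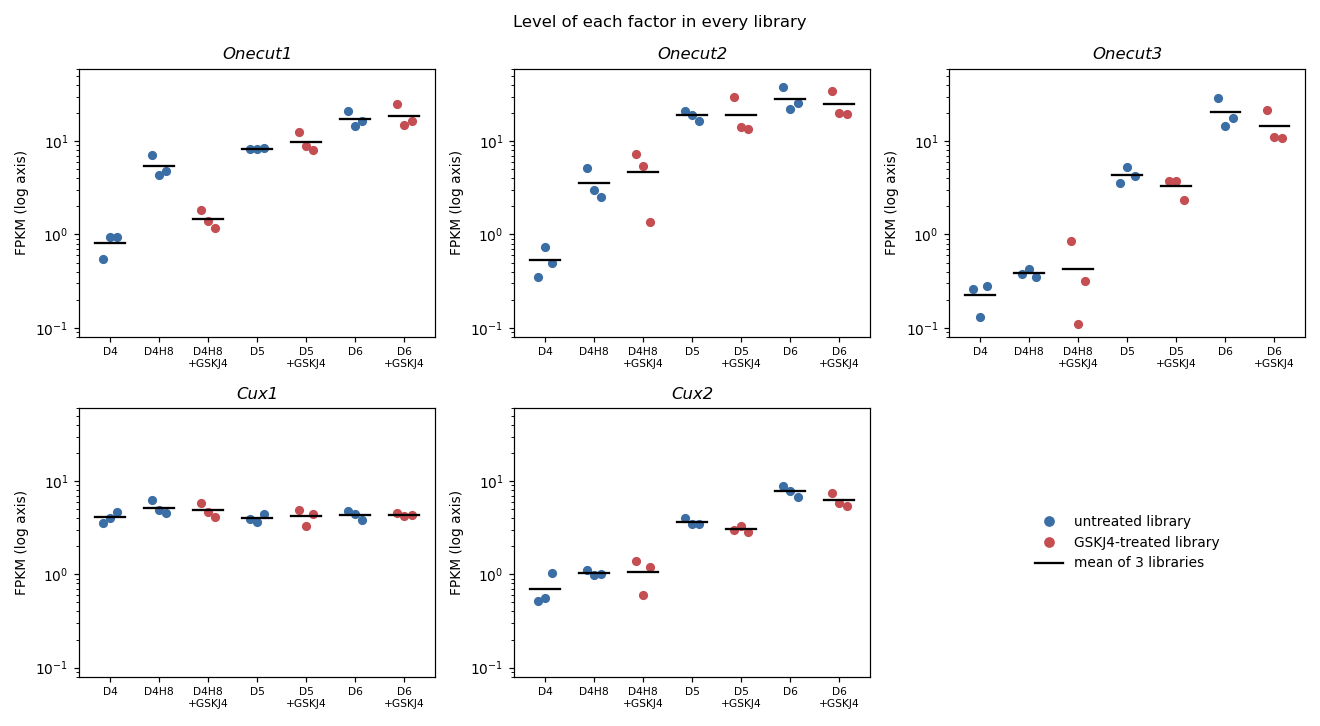
FPKM (log axis) of each gene in all 21 libraries by group, with untreated libraries in blue, GSKJ4-treated libraries in red and a black line at the mean of 3. *Cux1* stays between 3.30 and 6.20 FPKM in every library, whereas the other 4 genes start below 1.1 FPKM at D4, and the red *Onecut1* points at D4H8 (1.18 to 1.84 FPKM) lie below all blue ones (4.35 to 7.04 FPKM).

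In the first step, D4H8 against D4, 2 of the 5 genes were called higher (edgeR's quasi-likelihood test on counts, Benjamini-Hochberg adjusted p under 0.05), against a background of 4.06% of 17519 tested genes. *Onecut1* rose by 2.71 ± 0.24 on the log2 scale (SE, adjusted p = 2.8e-05), or 6.54-fold. *Onecut2* rose by 2.75 ± 0.32 (edgeR adjusted p = 0.00014), or 6.71-fold. *Onecut3*, at 0.71 ± 0.37, *Cux2*, at 0.54 ± 0.21, and *Cux1*, at 0.31 ± 0.15, did not pass (edgeR adjusted p = 0.37, 0.21 and 0.33). Without D4 replicate 3, whose *Cux2* level was the highest at that stage, *Cux2* passed with a log2 change of 0.89 (adjusted p = 0.021).

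Between D4H8 and D5, 4 of the 5 genes were called higher, against 17.2% of all tested genes. *Onecut3* rose by 3.48 ± 0.31 on the log2 scale (edgeR adjusted p = 2.1e-06), or 11.2-fold, and *Onecut2* by 2.39 ± 0.30 (edgeR adjusted p = 4.9e-05). *Cux2* rose by 1.83 ± 0.21 (edgeR adjusted p = 2.1e-05), or 3.56-fold. *Onecut1* rose by 0.61 ± 0.22, just past the threshold (edgeR adjusted p = 0.049), and leaving out any 1 of the 6 libraries other than D4H8 replicate 1 ended that call (adjusted p up to 0.19). *Cux1*, at -0.38 ± 0.15, missed the threshold (edgeR adjusted p = 0.078) and passed it without D4H8 replicate 3 (adjusted p = 0.049).

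Between D5 and D6, 3 of the 5 genes were called higher, against 19.2% of all tested genes. *Onecut3* rose by 2.36 ± 0.27 on the log2 scale (edgeR adjusted p = 2.2e-05), or 5.14-fold, *Cux2* by 1.21 ± 0.20 (edgeR adjusted p = 0.00047) and *Onecut1* by 1.20 ± 0.22 (edgeR adjusted p = 0.00082). *Onecut2*, at 0.71 ± 0.29, did not pass (edgeR adjusted p = 0.071). With the replicate number as a block it did, at 0.68 ± 0.24 (adjusted p = 0.039), which made 4 genes against 20.8% of all genes, and it also did without D6 replicate 2 (adjusted p = 0.048). *Cux1* had a log2 difference of 0.23 ± 0.15 (edgeR adjusted p = 0.25).

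From D4 to D6 the log2 rise was 6.56 ± 0.35 for *Onecut3* (94.0-fold), 5.85 ± 0.36 for *Onecut2* (57.7-fold), 4.52 ± 0.26 for *Onecut1* (22.9-fold) and 3.58 ± 0.22 for *Cux2* (11.9-fold), each with an edgeR adjusted p of at most 9.6e-09. These 4 calls compare with 32.9% of all tested genes called higher. *Cux1* differed by 0.17 ± 0.15 (edgeR adjusted p = 0.35), with an approximate 95% interval from -0.13 to 0.46. The stage contrasts share groups, so their values are not independent.

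The timing can be read as the part of each gene's log2 rise from D4 to D6 that fell in each step. For *Onecut1* 60% fell between D4 and D4H8, 13.5% between D4H8 and D5, and 26.5% between D5 and D6. For *Onecut2* the parts were 47%, 40.9% and 12.1%. *Onecut3* and *Cux2* had 10.8% and 15.1% in the first step, 53.2% and 51.1% in the second, and 36% and 33.7% in the last.

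**Figure D2:**
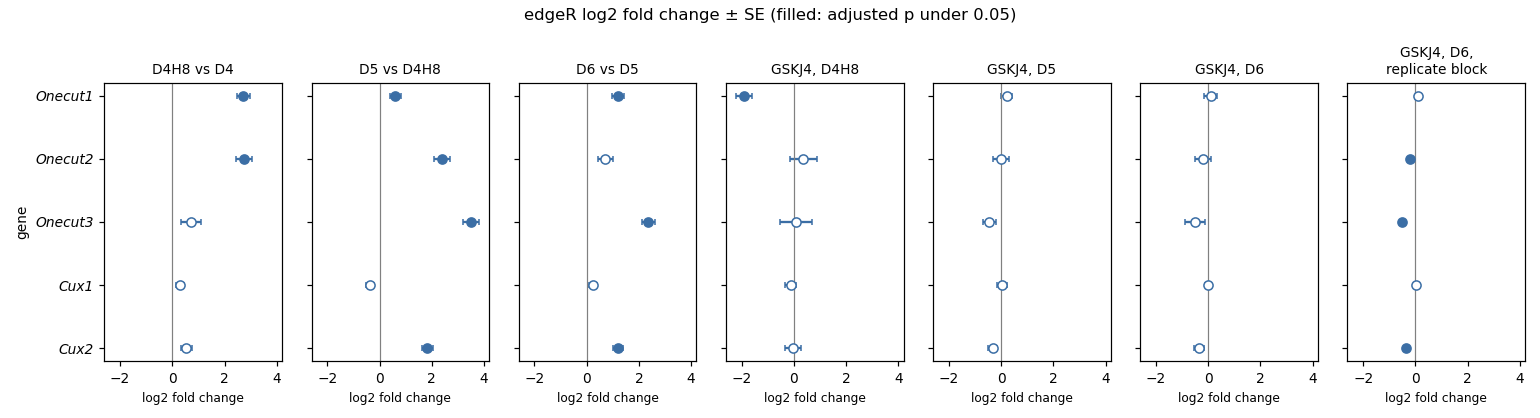
edgeR log2 fold change of each gene (dots, bars of 1 SE) in the 3 steps between untreated stages and in the GSKJ4 contrasts, with filled dots for an adjusted p under 0.05. *Onecut1* and *Onecut2* are the filled dots in the first step, at 2.71 and 2.75, and *Onecut1* is the only filled dot under GSKJ4 at D4H8, at -1.91; the last panel adds the replicate number as a block.

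These different schedules changed the make-up of the Onecut pool. The summed FPKM of the 3 Onecut genes was 1.56 ± 0.352 at D4, 9.35 ± 2.81 at D4H8, 31.6 ± 2.06 at D5 and 66.3 ± 19.5 at D6 (SD, n = 3). *Onecut1* made up 51.5% ± 3.72 of it at D4 and 57.9% ± 3.60 at D4H8, but 26.3% ± 2.08 at D5 and 26.8% ± 2.46 at D6. *Onecut2* held the largest share at D5, 59.9% ± 3.83, and 42.9% ± 0.0699 at D6. *Onecut3* went from 4.37% ± 1.26 at D4H8 to 13.8% ± 2.69 at D5 and 30.3% ± 2.47 at D6. The shares of *Onecut1* would be larger over its unshared bases, by the same factor before renormalizing in every library.

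**Figure D3:**
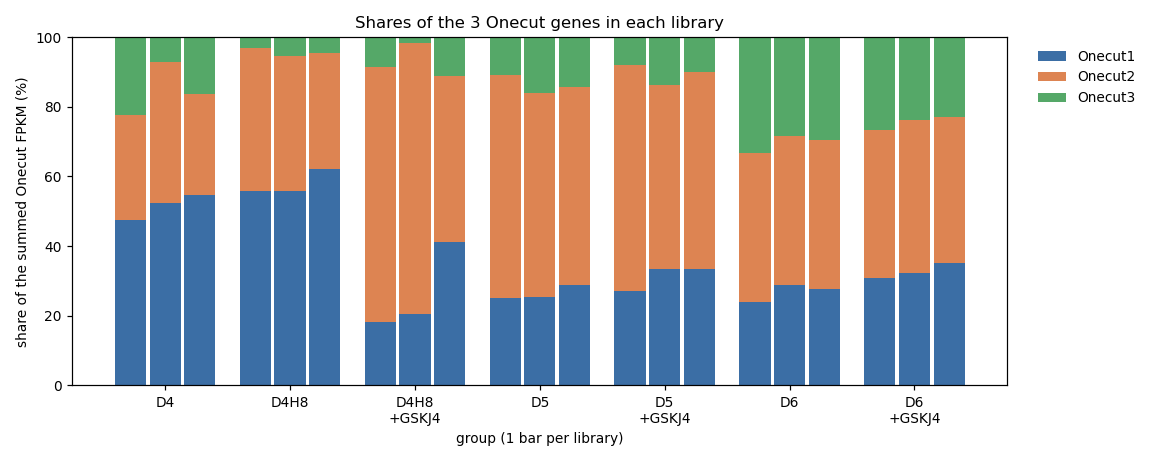
Share (%) of the summed Onecut FPKM held by *Onecut1* (blue), *Onecut2* (orange) and *Onecut3* (green), 1 bar per library. *Onecut1* holds 47.4% to 62.0% in the untreated D4 and D4H8 libraries, 18.3% to 41.1% under GSKJ4 at D4H8, and 24.02% to 28.7% at D5 and D6 without the inhibitor.

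Because a ratio of 2 genes within a library cancels the scaling between libraries, 3 ratios were tested over the 4 untreated stages by an exact permutation test of the F statistic (369600 arrangements of 12 libraries, adjusted over the 3 ratios, FPKM with 0.1 added). The log2 ratio of *Cux2* to *Cux1* was -2.43 ± 0.317 at D4, -2.21 ± 0.164 at D4H8, -0.12 ± 0.195 at D5 and 0.83 ± 0.0567 at D6 (SD, n = 3; exact permutation adjusted p = 0.00058). *Cux2* was thus listed below *Cux1* in FPKM in all libraries at D4 and D4H8 and above it in all libraries at D6. Which of them was higher at D6 depends on the exonic lengths, 10082 bases for *Cux2* and 20024 for *Cux1*. In log2 CPM, which is not scaled to length, the mean difference of *Cux2* from *Cux1* was -3.57 at D4 and -0.14 at D6. The log2 ratio of *Onecut1* to *Onecut2* was 0.55 ± 0.228 and 0.60 ± 0.231 at the first stages, -1.18 ± 0.189 at D5 and -0.68 ± 0.135 at D6 (exact permutation adjusted p = 0.00088). Over the unshared bases of *Onecut1* the same means were 1.55, 1.67, -0.11 and 0.40, so the stages still differed (exact permutation p = 0.00032), but which gene was higher at D6 turned. The log2 ratio of *Onecut3* to *Onecut2* was -0.94 ± 0.804 at D4, -2.86 ± 0.518 at D4H8, -2.11 ± 0.370 at D5 and -0.50 ± 0.115 at D6 (exact permutation adjusted p = 0.0019), and its D4 value rests on FPKM under 0.3 for *Onecut3*. Its difference between D6 and D4, 0.44, turned to -0.17 with 1 FPKM added and to -0.0097 without D4 replicate 2.

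In order of level at D4, *Cux1* (4.08 FPKM) lay above *Onecut1* (0.813), *Cux2* (0.703), *Onecut2* (0.527) and *Onecut3* (0.223 FPKM), where *Onecut1* and *Cux2*, and *Cux2* and *Onecut2*, overlapped. At D6 the order was *Onecut2* (28.4 FPKM), *Onecut3* (20.4), *Onecut1* (17.4), *Cux2* (7.83) and *Cux1* (4.34 FPKM). The Onecut genes overlapped there with their neighbours, although *Onecut2* exceeded *Onecut3* within each of the 3 libraries. *Cux2* lay clear in FPKM of the genes on both sides.

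To ask how inhibition of Kdm6 bears on these factors, treated and untreated libraries of each stage were compared. At D4H8 *Onecut1* was the 1 gene of the 5 called lower, at D5 none passed, and at D6 *Onecut2*, *Onecut3* and *Cux2* were called lower once the libraries were paired by replicate number. The GSKJ4 effect on *Onecut1* differed between stages.

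At D4H8, *Onecut1* had 1.84, 1.41 and 1.18 FPKM with GSKJ4, against 7.04, 4.35 and 4.74 FPKM without it. The groups did not overlap, as was so for 17.1% of tested genes with treated below untreated in depth-scaled counts (CPM), and the treated libraries lay closer to D4 (0.55 to 0.95 FPKM) than to untreated D4H8. The log2 difference was -1.91 ± 0.30 (edgeR adjusted p = 0.019), a 3.76-fold lower level. That 1 of 5 genes was called lower compares with 1.85% of 16269 tested genes. Leaving out any 1 of the 3 untreated D4H8 libraries ended the call (adjusted p up to 0.11), with the log2 difference between -2.07 and -1.64 over all 6 omissions.

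*Onecut2*, which had risen with *Onecut1*, did not pass the test. Its treated libraries had 7.36, 5.36 and 1.37 FPKM, spread on both sides of the untreated 5.17, 3.03 and 2.55 FPKM. The log2 difference was 0.36 ± 0.52 (edgeR adjusted p = 0.70), with an approximate 95% interval from -0.66 to 1.39 that leaves room for change in either direction. The log2 ratio of *Onecut1* to *Onecut2* was 0.60 ± 0.231 without and -1.33 ± 0.982 with the inhibitor (SD, n = 3), with no overlap and an exact permutation p of 0.1, the smallest that 3 against 3 libraries can give (adjusted p = 0.23 over 9 ratios and stages, a comparison added after the values were seen).

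*Onecut3* had 0.86, 0.11 and 0.32 FPKM with GSKJ4 at D4H8 against 0.35 to 0.43 FPKM without it, a difference of 0.09 ± 0.60 on the log2 scale. *Cux1*, at 5.86, 4.66 and 4.10 FPKM, differed by -0.13 ± 0.21, and *Cux2*, at 1.39, 0.60 and 1.19 FPKM, by -0.03 ± 0.30. None of the 3 passed (edgeR adjusted p = 0.74 to 0.96), and the groups overlapped in each. The approximate 95% interval for *Cux1*, -0.54 to 0.29, was the narrowest.

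At D5, *Onecut1* had 12.5, 8.96 and 8.01 FPKM with GSKJ4, against 8.19 to 8.37 FPKM without it, and differed by 0.21 ± 0.21 on the log2 scale. *Onecut2* had 29.98, 14.1 and 13.5 FPKM (-0.01 ± 0.30), *Onecut3* 3.75, 3.71 and 2.36 FPKM (-0.45 ± 0.26) and *Cux1* 4.86, 3.30 and 4.43 FPKM (0.03 ± 0.18). *Cux2*, at 3.02, 3.27 and 2.87 FPKM, lay below every untreated library, at a log2 difference of -0.32 ± 0.17. None passed (edgeR adjusted p = 0.98 to 1.00), where 0.00613% of 16309 genes did. Groups did not overlap in CPM, treated below untreated, for 6.47% of tested genes, beside which the 1 of 5 genes here is to be read. DESeq2 called none of the 5, and the count stayed at 0 without D5_GSKJ4 replicate 2, the library that stood apart.

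At D6, *Onecut1* had 25.0, 14.9 and 16.5 FPKM with GSKJ4 against 21.2, 14.7 and 16.4 FPKM without it. *Onecut2* had 34.8, 20.2 and 19.7 FPKM against 37.9, 21.9 and 25.6 FPKM, and *Onecut3* 21.6, 10.9 and 10.7 FPKM against 29.3, 14.5 and 17.6 FPKM. *Cux2* had 7.38, 5.88 and 5.34 FPKM against 8.89, 7.89 and 6.71 FPKM, and *Cux1* 4.58, 4.19 and 4.33 FPKM against 4.73, 4.43 and 3.85 FPKM. In each Onecut gene replicate 1 was the highest library with and without the inhibitor. The treated and untreated ranges overlapped in all 5 genes.

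Without regard to pairs, 0 of the 5 genes and 0% of 16301 genes passed at D6 (edgeR), 222 genes had an unadjusted p under 0.05, and DESeq2 called 1 gene, none of the 5. The log2 differences were 0.10 ± 0.25 for *Onecut1*, -0.20 ± 0.31 for *Onecut2*, -0.51 ± 0.38 for *Onecut3*, 0.00 ± 0.12 for *Cux1* and -0.34 ± 0.18 for *Cux2*. With the replicate number as a block, 3 of the 5 genes were called lower, against 1.28% of all tested genes. *Onecut3* was lower by 0.53 on the log2 scale (-0.53 ± 0.06, adjusted p = 4.8e-05), *Cux2* by 0.35 (-0.35 ± 0.06, adjusted p = 0.0016) and *Onecut2* by 0.21 (-0.21 ± 0.05, adjusted p = 0.020). *Onecut1* (0.08 ± 0.06, adjusted p = 0.68) and *Cux1* (0.01 ± 0.06, adjusted p = 0.99) did not pass in that edgeR fit. *Onecut3* and *Cux2* stayed called without any 1 of the 3 pairs (adjusted p up to 0.0014 and 0.047), whereas *Onecut2* was lost without pair 2 (adjusted p = 0.052) and without pair 3 (adjusted p = 0.12).

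Within pairs at D6, *Onecut3* in CPM differed by -0.46, -0.43 and -0.73 on the log2 scale, *Cux2* by -0.29, -0.45 and -0.35, and *Onecut2* by -0.14, -0.14 and -0.40. All 3 pairs were lower for these genes, as they were for 19.6% of all tested genes. *Onecut1* had 0.21, -0.0037 and -0.01, and *Cux1* had -0.07, -0.11 and 0.15. The share of *Onecut3* in the Onecut pool was 24.4% ± 1.92 with and 30.3% ± 2.47 without GSKJ4 (SD, n = 3), and the ranges did not overlap.

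**Figure D4:**
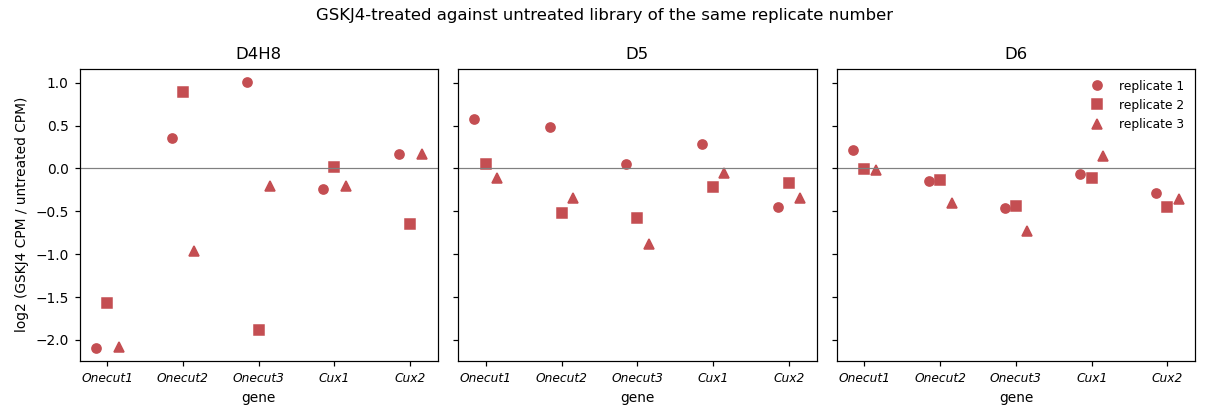
Log2 ratio of CPM between the GSKJ4-treated and the untreated library of the same replicate number, by gene and stage, with a symbol for each replicate number and a line at 0. The 3 *Onecut1* points at D4H8 lie between -2.09 and -1.56; at D6 *Onecut2*, *Onecut3* and *Cux2* have all points below 0, between -0.73 and -0.14.

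The change of *Onecut1* itself was then compared between stages, in a fit over the 18 libraries of D4H8, D5 and D6. Its GSKJ4 effect was higher at D5 than at D4H8 by 2.12 ± 0.40 on the log2 scale (edgeR adjusted p = 0.024), where 0.232% of 18103 genes were called in that direction. At D6 it was higher than at D4H8 by 2.03 ± 0.39 (edgeR adjusted p = 0.020), where 0.552% of genes were called. Without D4H8 replicate 1 both calls were lost. In all, the D5 call was lost on leaving out 7 of the 12 libraries in turn (D4H8 replicate 1, D4H8_GSKJ4 replicates 2 and 3, D5 replicates 1, 2 and 3, and D5_GSKJ4 replicate 1; adjusted p up to 0.11), and the D6 call on leaving out 4 (D4H8 replicate 1, D6 replicates 2 and 3, and D6_GSKJ4 replicate 1; adjusted p up to 0.086). Both differences stayed between 1.72 and 2.29 over all omissions. None of the other 4 genes had a called difference between any pair of stages (edgeR adjusted p = 0.74 to 1.00). Between D6 and D5, 0 genes were called by edgeR, with 358 at an unadjusted p under 0.05, and 1 by DESeq2. Part of a list of 12 MN transcription factors had called differences of the GSKJ4 effect too. The effect was called higher at D5 than at D4H8 for 2 of the 12 and lower for 0 (median log2 difference of the list 1.765). At D6 against D4H8, it was called higher for 5 and lower for 0 (median 2.143). The rest of the list was not called.

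Averaged over the 3 treated stages, *Onecut1* had a log2 effect of -0.54 ± 0.16 (edgeR adjusted p = 0.085), and the other genes lay between -0.30 and 0.04. No member passed there, against 1.99% of 18103 genes. With the replicate block *Onecut1* did, at -0.56 ± 0.10 (adjusted p = 0.0039), as it did in DESeq2 (adjusted p = 0.032). That block pairs libraries at all 3 stages, although D4H8 and D5 did not meet the rule for pairing given below (lowest correlations 0.0874 and 0.0564). By stage the effect on *Onecut1* was -1.91 at D4H8, 0.21 at D5 and 0.10 at D6. The average thus rests on D4H8 and does not describe an effect shared by the stages.

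Lists of MN genes show what else moved at these stages. Of 12 MN transcription factors, 11 were called higher from D4 to D4H8, with a median log2 change of 2.64 against -0.02 over all genes, and *Isl1* (2.89 ± 0.25) and *Lhx4* (3.17 ± 0.31) were among them. At D5, 7 were called higher and 3 lower, the latter being *Neurod4*, *Neurog2* and *Olig2*, factors of progenitors and newborn neurons. At D6, 4 were called higher (*Isl1*, *Isl2*, *Lhx4* and *Ebf1*) and 7 lower. Over all 17519 tested genes, 711 were called higher and 56 lower from D4 to D4H8. From D4H8 to D5 the counts were 3019 and 1842, and from D5 to D6 they were 3369 and 2647. Of 9 cholinergic and effector genes, such as the neurofilament gene *Nefm*, 6 were called higher at D4H8, all 9 at D5 and 7 at D6, with median log2 changes of 1.29, 3.36 and 1.55.

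Of 6 motor column genes, 2 were called higher at D5 (*Aldh1a2* and *Nos1*) and 2 at D6 (*Aldh1a2*, by 4.50 ± 0.27, and *Mecom*), with 0 lower in either step, while 17.2% and 19.2% of all tested genes were called higher in these steps. *Aldh1a2* makes retinoic acid and marks limb-level motor neurons. Of 12 spinal interneuron genes, 10 were tested: 5 were called higher and 0 lower between D4H8 and D5, *Calb1*, *Sim1* and *Bhlhe22* among them, and 3 higher (*Calb1*, *Gata2* and *Sim1*) and 1 lower (*Bhlhe22*) between D5 and D6, beside the same shares of all genes. *Calb1* marks Renshaw cells among V1 interneurons, a class in which Onecut factors are also known. The summed level of the interneuron list moved with *Onecut3* and *Cux2* from D4H8 (6.76 to 7.58 FPKM) to D5 (44.4 to 92.6 FPKM), and its part in their rise was not tested. Of the 12, *Calb1*, *Sox14* and *Sim1* were under 0.1 FPKM in all 3 D4H8 libraries, *Sox14* in all 3 D5 libraries and 0 at D6.

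The CUT relative *Satb1* was at 2.22 ± 0.282 FPKM at D4 and 4.38 ± 0.490 FPKM at D6 (SD, n = 3), and rose by 1.05 ± 0.16 on the log2 scale from D4 to D6 (edgeR adjusted p = 6.4e-05). Under GSKJ4 its log2 difference was -0.42 ± 0.20 at D4H8, 0.19 ± 0.18 at D5 and 0.06 ± 0.16 at D6, and none passed (edgeR adjusted p = 0.23, 0.98 and 1.00).

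Under GSKJ4 at D4H8, 7 of 12 MN transcription factors were called lower and 0 higher, with a median of -2.29 against 0.02 over all genes. *Neurog2*, the proneural factor, had -3.97 ± 0.31, *Olig2* -3.91 ± 0.51 and *Isl1* -2.44 ± 0.32, each further from 0 than *Onecut1*. The summed level of that list was 31.6 to 64.4 FPKM with and 250.5 to 367.3 FPKM without the inhibitor, and that of 10 neural progenitor genes 74.5 to 158.1 against 216 to 275.1 FPKM. Pluripotency genes summed to 118.5 to 272.8 FPKM with and 60.04 to 256 FPKM without it. Feeder fibroblast genes summed to 11.41, 14.39 and 29.38 FPKM with and 6.6, 8.38 and 15.26 FPKM without it, and 0 of the 7 tested were called. The part of these shifts in the *Onecut1* result was not tested. Without any 1 of the untreated D4H8 libraries, 43 to 50 genes in all were called at this stage, against 644 with all 6.

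At D6 in the blocked fit, 2 MN transcription factors were called lower (*Isl2*, at -0.54 ± 0.07, and *Lhx4*, at -0.50 ± 0.06) and 1 higher (*Ebf3*, at 0.30 ± 0.05). Of the motor column genes *Lhx1* (-0.81 ± 0.13) and *Aldh1a2* (-0.67 ± 0.06) were called lower, and so were 2 interneuron genes, *Calb1* (-1.69 ± 0.23) among them. Of 9 cholinergic and effector genes, 2 were called lower, the choline transporter gene *Slc5a7* (-0.32 ± 0.05) and the receptor gene *Ret* (-0.35 ± 0.05), and so were the feeder fibroblast gene *Col3a1* (-0.58 ± 0.07) and the glial gene *Pdgfra* (-0.57 ± 0.12). No progenitor, pluripotency or endoderm gene was called, and 1.28% of all tested genes were called lower in that fit. The interneuron list summed to 32.4 to 67.7 FPKM with and 59.9 to 104.6 FPKM without GSKJ4, in the same direction as *Onecut3* and *Cux2*, and its part in their change was not tested. Pluripotency genes summed to 13.2 and 15.7 FPKM in the replicate 1 libraries, where the Onecut genes were highest, against 92.0 to 118.5 FPKM in the other 4 D6 libraries with and without inhibitor. The endoderm and liver list, which holds genes of tissues where Onecut factors are also active, summed to between 15.7 and 36.0 FPKM in all 21 libraries, and its hepatocyte factor *Hnf4a* was under 0.1 FPKM in every one. Most of that sum came from *Foxa2*, at 14.8 ± 2.67 FPKM at D4 and 15.2 ± 2.86 FPKM at D6 (SD, n = 3). Of the 7 tested genes of the list, *Sox17* and *Foxa2* were called lower between D4H8 and D5. Between D5 and D6 *Foxa1* and *Afp* were called higher, with *Sox17* and *Gata6* among those called lower. Of all 17519 tested genes, 1842 were called lower between D4H8 and D5. Between D5 and D6, 3369 were called higher and 2647 lower.

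The genes whose level followed each factor most closely over the 12 untreated libraries were named by Pearson's r of log2 CPM, as a description, since libraries of a stage share their stage and most genes that rise will correlate. For *Onecut1* they were *Dpysl4*, *Tbc1d9*, *Elavl3*, *Numbl* and *Isl1* (r from 0.985 to 0.980), which include the neuronal RNA-binding protein gene *Elavl3*. For *Onecut2* they were *Kalrn*, *Elavl4*, *Celsr3*, *Pcdhb17* and *Nefm* (r from 0.998 to 0.996), with neurofilament and cadherin-type genes among them. *Onecut3* was followed most closely by *Runx1*, *Arl8a*, *Umad1*, *Sfxn3* and *Islr2* (r from 0.996 to 0.994), the first a transcription factor of motor and sensory neuron subsets that stood at 0.0567 FPKM at D4 and 11.9 FPKM at D6. *Cux2* was followed by *Magee1*, *Cyfip2*, *Gnao1*, *Apba1* and *Rab11fip5* (r from 0.997 to 0.995).

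For *Cux1* the closest were *Mpst*, *Zfp771*, *Eri3*, *Cdc42ep4* and *H1fx*, with lower r (0.932 to 0.852) that came to 0.297 to 0.547 over all 21 libraries. Among the factors themselves, *Onecut3* and *Cux2* had the highest r, 0.986, followed by *Onecut1* and *Onecut2* at 0.967. *Cux1* had r between -0.108 and 0.217 with each of the other 4.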

How the data were processed

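RNA-seq was made from 21 libraries, 7 groups of 3, grouped and numbered by the labels. Per the study's methods, Fastp trimming and HISAT2 alignment to mm10 came before counting on genes with HTSeq-count. Counting strand and overlap mode are not given in the sources used here. The deposited count table and the deposited FPKM table, which the authors scaled to exonic length and counted reads, cover 55400 genes, 260 of them without a symbol. FPKM recomputed from the counts differed by at most 0.005. In the 21 pairs within groups chi-square per gene was 6.94 to 116.7, so no pair was a duplicate.

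Counts were tested in R 4.3.3 with edgeR 4.0.16 (quasi-likelihood test, TMM, filterByExpr with a minimum count of 10, Benjamini-Hochberg over all tested genes, adjusted p under 0.05), the stages on the 12 untreated libraries, GSKJ4 on the 6 libraries of a stage, and differences of effects on 18. Alternatives were DESeq2 1.42.0, other scalings and filters, a replicate block, other sets of libraries and each library left out. The members and lists were chosen with earlier results of these data known. Named genes were the 5 members, for each the 5 genes with the highest Pearson's r of log2 CPM (prior count 2) over the untreated libraries with a mean of at least 10 CPM, and genes of the lists, a few of which are not reported here. P-values measure the spread between libraries named as biological replicates. Intervals are normal approximations from the SE. The scripts were tested on simulated data. Positions are from GENCODE M21.

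Equal replicate numbers were taken to pair libraries where deviations from the group means correlated above 0.1 in all 3 pairs. This held for D6 with D6_GSKJ4 (0.796, 0.488 and 0.629), D4 with D4H8 (0.308, 0.145 and 0.369), D4H8 with D5 (0.340, 0.185 and 0.181) and D5 with D6 (0.371, 0.220 and 0.310), a pairing that comes from the correlations and not from the labels.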

Additional observations from a re-analysis of the deposited data

Results flagged for a closer look

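The GSKJ4 effect on *Onecut1* differed between stages, by 2.12 ± 0.40 on the log2 scale between D5 and D4H8 (edgeR adjusted p = 0.024) and by 2.03 ± 0.39 between D6 and D4H8 (edgeR adjusted p = 0.020). What drew attention is that the difference of the effects itself passed the test in both comparisons, which share the D4H8 libraries. It was not particular to *Onecut1*: of 12 MN transcription factors, 2 were called higher in the first comparison and 5 in the second. Their median log2 differences were 1.765 and 2.143. *Onecut1* was lower under the inhibitor in 3 of 3 libraries at D4H8, while at D5 and D6 the treated and untreated libraries overlapped.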

How the results depend on the processing

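Onecut3, Onecut2, Onecut1 and Cux2 were called higher at D6 than at D4 under all 14 alternatives to that fit. Of 859 refits of a single member in a contrast, 813 kept their side of the threshold, 23 lost a call and 23 gained one, and no called effect changed sign. At D6 under GSKJ4 the count of members called was 0 without and 3 with the replicate block, and 2 to 3 with a pair left out, an alternative added after the values were seen. At D4H8 under GSKJ4 it was 1, and 0 to 1 with a library left out. For the difference between D5 and D4H8, and that between D6 and D4H8, it was 1, and also 0 to 1 with a library left out. For the average over stages it was 0, but 1 with DESeq2, 1 with no filter and 1 with the replicate block, and 0 to 1 with a library left out. The log2 ratio of *Onecut3* to *Onecut2* differed between D6 and D4 by 0.44, by -0.17 with a pseudocount of 1, and by -0.0097 to 0.76 with a library left out, turning without D4 replicate 2. All 3 ratios kept an adjusted p under 0.05 in every alternative. The D4H8 and D5 libraries did not meet the rule for pairing with their GSKJ4-treated ones (lowest correlations 0.0874 and 0.0564). Even so, each D5 library correlated best with the treated library of its own number, as did D4H8 replicates 1 and 3. At these stages the block called the same number of members and changed the calls over all genes from 644 to 2274 and from 1 to 4. Between D5 and D6 the block also turned *Onecut2* from not called to called (edgeR adjusted p = 0.071 without and 0.039 with it), and beside the calls given here it changed no other call of a member. Of the genes named as most alike, 0 to 3 of 5 per factor stayed among the closest 5 over all 21 libraries, and 0 to 1 by Spearman's rho, so these lists depend on the measure. The cause of these changes was not tested. Depth limits *Onecut3* at D4 and D4H8, where it stood below 1 FPKM in every library.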
